A study of Mus musculus with 19 samples.

Results

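Brain microvessels of mice exposed to e-cigarette vapour with nicotine were compared with those of mice exposed to nicotine-free e-cigarette vapour. The members were chosen by their titles: 3 libraries with nicotine and 4 without, 7 of the 19 in the study. All came from male C57BL/6 mice bought at 7 weeks of age, a strain used as an inbred wild type, and each library held polyadenylated RNA of cerebral microvessels, read as single ends of 80 nt with a strand-specific protocol. The vapour device and liquid, the nicotine dose, the length of exposure, the hour of collection and any pooling of animals are not given in the sources used here. The labels tie neither of the study's air groups to an exposure; the 4 libraries titled room air were taken as the unexposed background by assumption. The other air group and the cigarette smoke group were not used here.

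The blood-brain barrier is formed by endothelial cells that are sealed by tight junctions, carry glucose and amino acid transporters and drug efflux pumps, and rest on a basement membrane shared with pericytes and the endfeet of astrocytes. Wnt and Norrin ligands made by neighbouring neural cells keep up this state through Frizzled receptors on the endothelium. Nicotine acts on ligand-gated acetylcholine receptors, is lipophilic and crosses the barrier, and nicotine-free vapour delivers the carrier aerosol without it. The comparison asks how the vapours with and without nicotine differ. Whether they differed in nicotine alone is not given in the sources used here.

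Between the vapours, 4273 of 17235 genes passed an adjusted p of 0.05 (24.8% called; edgeR's quasi-likelihood test with Benjamini-Hochberg adjustment), 2131 higher and 2142 lower with nicotine (12.4% in either direction). These shares over all genes are the background for the counts of list members below. A called gene moved by 0.53 on the log2 scale at the median, and 385 moved at least 2-fold, 243 of them higher. Vessel genes, folding genes of the endoplasmic reticulum and glucocorticoid-induced genes were among those that rose, and genes of the respiratory chain, ribosome, myelin and neurons among those that fell. Of the called genes, 89.0% had no overlap between the 3 and the 4 libraries, against 33.1% of all genes tested. The room-air mean lay between both vapour means for 79.4% of the called genes, against 44.5% of all tested. Both shares follow in part from the calls, which use the same vapour libraries and select genes whose vapour means lie apart. Side by side, and with the same room-air libraries in both, 670 genes (3.89%) passed for nicotine vapour against room air and 3753 (21.8%) for nicotine-free vapour against room air. These counts rest on 3 and on 4 vapour libraries and do not rank the distance to room air. The median gene differed from room air by 0.187 to 0.334 (log2) in nicotine libraries and by 0.22 to 0.311 in nicotine-free libraries.

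Several properties of whole libraries moved with the vapour. Total counts were 21800157, 26155458 and 28364198 in nicotine replicates 1 to 3 and 15200536 to 19137859 in the nicotine-free libraries, beside 25266790 to 30185056 in room air. Reads that the counting assigned to no feature made up 36.4% ± 2.97 (SD, n = 3) with nicotine and 42.1% ± 2.57 (n = 4) without (exact permutation test, two-sided, p = 0.0571, the smallest that 3 against 4 allow, adjusted p = 0.0761 over 4 library measures). Whether these reads lay inside or outside genes was not tested. The first principal component, 36.7% of the variance, separated the vapours. The median gene differed between libraries of different vapours by 0.267 to 0.348 on the log2 scale, among the nicotine-free libraries by 0.147 to 0.193, and among the nicotine libraries by 0.167 to 0.279.

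The labelled tissue was checked against markers of the cells it could hold. All 22 endothelial markers were detected in each of the 7 libraries, as were those of pericytes, astrocytes, neurons and myelin, so the preparations held neural as well as vascular RNA. Of the endothelial markers 13 of 22 rose and none fell with nicotine. Their summed share of counts was 0.720%, 0.402% and 0.743% in the 3 nicotine libraries and 0.285%, 0.371%, 0.431% and 0.286% in the 4 nicotine-free libraries. Nicotine replicate 2 thus lay inside the nicotine-free range, and the groups overlapped (mean log2 level 7.69 ± 0.52, n = 3, against 6.93 ± 0.29, n = 4; exact permutation test, p = 0.114, adjusted p = 0.304 over 16 lists). The count of endothelial markers that rose was 7 without nicotine replicate 1 or 3 and 21 without nicotine replicate 2. A separate list of arterial and venous endothelial markers gave 1 rise and 0 falls among 12, with a median of 0.14. Its called share was 8.33%, below the 24.8% of all genes tested. The mean level of that list overlapped between the vapours (exact permutation test, p = 0.343, adjusted p = 0.549).

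Pericyte markers rose in 5 of 12 cases, with a median of 0.45 on the log2 scale, and in 2 without nicotine replicate 1 and 9 without nicotine replicate 2. Abcc9, a channel subunit of pericytes, rose by 1.07 ± 0.16 (SE), and Rgs5 by 0.91 ± 0.19. With the endothelial marker level as a covariate in the model (the endothelial covariate), 1 pericyte marker was higher, and Rgs5 was at 0.26 (adjusted p = 0.215). Of the genes described below, Cldn5, Cdh5, Pecam1, Slc2a1, Abcb1a, Adgrl4 and Tek are themselves part of that covariate. Smooth muscle (1 of 10) and fibroblast markers (1 of 12) gave 1 rise each. Neural markers lay on the other side: 9 of 13 astrocyte markers, 10 of 20 neuron markers and 7 of 11 myelin markers fell and none rose, with medians of -0.51, -0.46 and -0.47. Their mean levels did not overlap between the vapours, and each gave the smallest p that 3 against 4 allow (exact permutation test, 0.0571, adjusted p = 0.228). Of the choroid plexus and ependyma markers 0 of 12 passed, and their share of counts varied from 0.0885% to 1.86% within the nicotine-free group alone. That share was 0.213% to 0.722% with nicotine and 1.78% to 2.5% in room air. Their mean log2 level was 6.38 ± 0.09 in room air, 4.91 ± 0.66 with nicotine and 4.54 ± 1.31 without. Room air thus stood above both vapour means for these markers, and their part in the differences of other genes from room air was not tested.

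**Figure D1:**
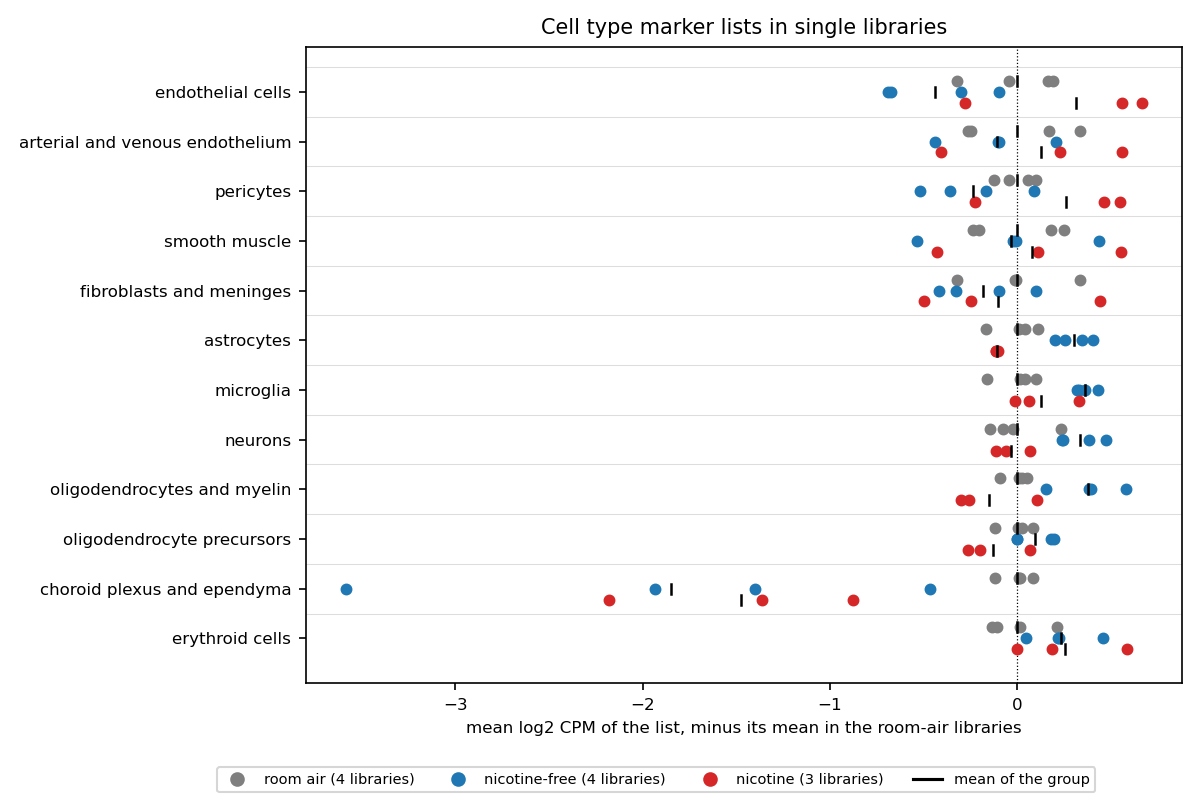
Mean log2 level of each marker list in every library, on the x axis, set to 0 at the room-air mean of that list; each point is 1 library and each tick a group mean. With nicotine, 2 of the 3 endothelial points lie above all 4 nicotine-free points and 1 lies among them, and the astrocyte, neuron and myelin points of the vapours do not overlap.

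In bulk RNA, fewer cells of a type and less RNA per cell cannot be told apart. With the endothelial covariate, 1924 genes passed higher and 1757 lower, 2649 of them among the 4273. With the neuron marker level as a covariate 58 and 33 passed. Calls then remained in 9 of the 42 gene lists: oxidative phosphorylation (3 lower), antioxidant (2 lower), cytosolic ribosomal (1 lower), astrocyte (1 lower), glucocorticoid (2 higher, 1 lower), clock (1 higher, 1 lower), p53 (2 higher), endothelial activation (1 higher) and neuron genes (2 higher, 1 lower). The other lists gave 0 calls. Of the genes described below, Plat, Cdkn1a, Tsc22d3, Mt1, Mt3, Mdm4, Arntl, Dbp, Gstm5, Prdx5, Uqcr11, Abhd12b, Nrgn, Caln1 and Ttc9b passed in that fit, and no other did. In that fit the fold changes of the called genes kept 0.891 of their size at the median, 4254 of 4273 kept their sign, and their standard errors grew 1.65-fold. Marker levels and vapour moved together, so the share of each in a gene's difference was not tested beyond these fits.

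Tight and adherens junction genes rose in 8 of 30 cases and fell in 1, with a median of 0.35 beside 0.02 over all genes tested. The called share was 30%, near the 24.8% of all genes tested. Ocln encodes occludin, a transmembrane protein of the tight junction. It measured 82.8, 57.3 and 85.0 CPM (counts scaled by library size) in the 3 nicotine libraries, 37.8, 36.8, 38.9 and 29.1 CPM in the 4 nicotine-free libraries and 56.4 to 80.1 CPM in room air. Every nicotine library thus stood above every nicotine-free library, near the room-air level. The difference was 1.07 ± 0.15 on the log2 scale (adjusted p = 0.000423), and 0.60 with the endothelial covariate (adjusted p = 0.00585).

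Claudin 5 (Cldn5) seals the tight junctions of these vessels. It measured 635, 252 and 657 CPM with nicotine and 296, 396, 544 and 331 CPM without, beside 253 to 424 CPM in room air. Nicotine replicate 2 had the lowest value of the 7 libraries and the other two nicotine libraries the highest. The fitted difference of 0.39 ± 0.33 did not pass (adjusted p = 0.415). With the endothelial covariate it was -0.72 (adjusted p = 0.0101), that is, lower with nicotine relative to a marker level that includes Cldn5 itself. Without nicotine replicate 2 the difference was 0.72 (adjusted p = 0.0437).

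The scaffold gene Tjp1 (ZO-1) rose by 0.60 ± 0.13, from 178 ± 11.2 CPM without to 271 ± 37.9 CPM with nicotine. The catenin Ctnnd1, which anchors cadherins, rose by 0.53. Endothelial cadherin Cdh5 rose by 1.00 ± 0.26 and the adhesion molecule Pecam1 by 1.14 ± 0.25; Cdh5 overlapped between the groups, with 79.1 CPM in nicotine replicate 2 and 85.0 CPM in nicotine-free replicate 3. With the endothelial covariate Tjp1 was at 0.24 (adjusted p = 0.188), Cdh5 at 0.10 and Pecam1 at 0.26, none past the threshold; Cdh5 and Pecam1 are themselves on that marker list. Cdh5 was 0.97 without nicotine replicate 1 and 0.72 without nicotine replicate 3 (adjusted p = 0.061 and 0.071). Cldn10, another claudin, fell by 0.34, a call that did not hold without nicotine replicate 1 or 2 or nicotine-free replicate 2, 3 or 4 (adjusted p = 0.0696 to 0.0963), or with the endothelial covariate (0.109). Tjp1 and Cdh5 overlap a gene on the opposite strand.

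Of 37 barrier transporters 18 rose and 1 fell, with a median of 0.41. Slc2a1 (GLUT1) brings glucose across the endothelium. It measured 859, 664 and 966 CPM with nicotine, 321, 447, 459 and 272 CPM without and 765 to 861 CPM in room air. All 3 nicotine libraries were above all 4 nicotine-free libraries, and around the room-air level. The rise of 1.15 ± 0.17 (adjusted p = 0.000617) was 0.70 with the endothelial covariate (adjusted p = 0.0077).

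Efflux pumps split by gene. Abcg2 (BCRP) measured 118, 84.9 and 115 CPM with nicotine and 41.4 to 59.0 CPM without, a rise of 0.99 ± 0.16 (adjusted p = 0.000823). Abcb1a, the endothelial P-glycoprotein, rose by 0.96 ± 0.21, from 127 ± 25.9 to 248 ± 66.3 CPM. Its paralogue Abcb1b fell by 0.54, the only member of the transporter list to fall, and near-identical stretches of the pair make the split of reads between them uncertain. Abcb1b did not pass without nicotine replicate 1 (-0.52, adjusted p = 0.066). With the endothelial covariate Abcg2 was at 0.55 (adjusted p = 0.0156), while Abcb1a and Abcb1b did not pass, at 0.24 and -0.42 (adjusted p = 0.155 and 0.165).

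Carriers of nutrients also rose: Slc7a5, which carries large neutral amino acids, by 0.82 ± 0.16, the thiamine transporter Slc19a3 by 1.16 ± 0.17, the lipoprotein receptor Lrp8 by 0.62 ± 0.08, and Mfsd2a, a lipid transporter that restrains transcytosis, by 0.65 ± 0.16. The clearance receptor Lrp1 differed by 0.18 ± 0.09 (adjusted p = 0.165). Without nicotine replicate 1, Mfsd2a was at 0.59 (adjusted p = 0.051). With the endothelial covariate Mfsd2a and Slc7a5 did not pass, at 0.22 and 0.38 (adjusted p = 0.374 and 0.0755), and Slc19a3 was at 0.63. The count that rose was 11 without nicotine replicate 1 and 8 with the endothelial covariate.

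**Figure D2:**
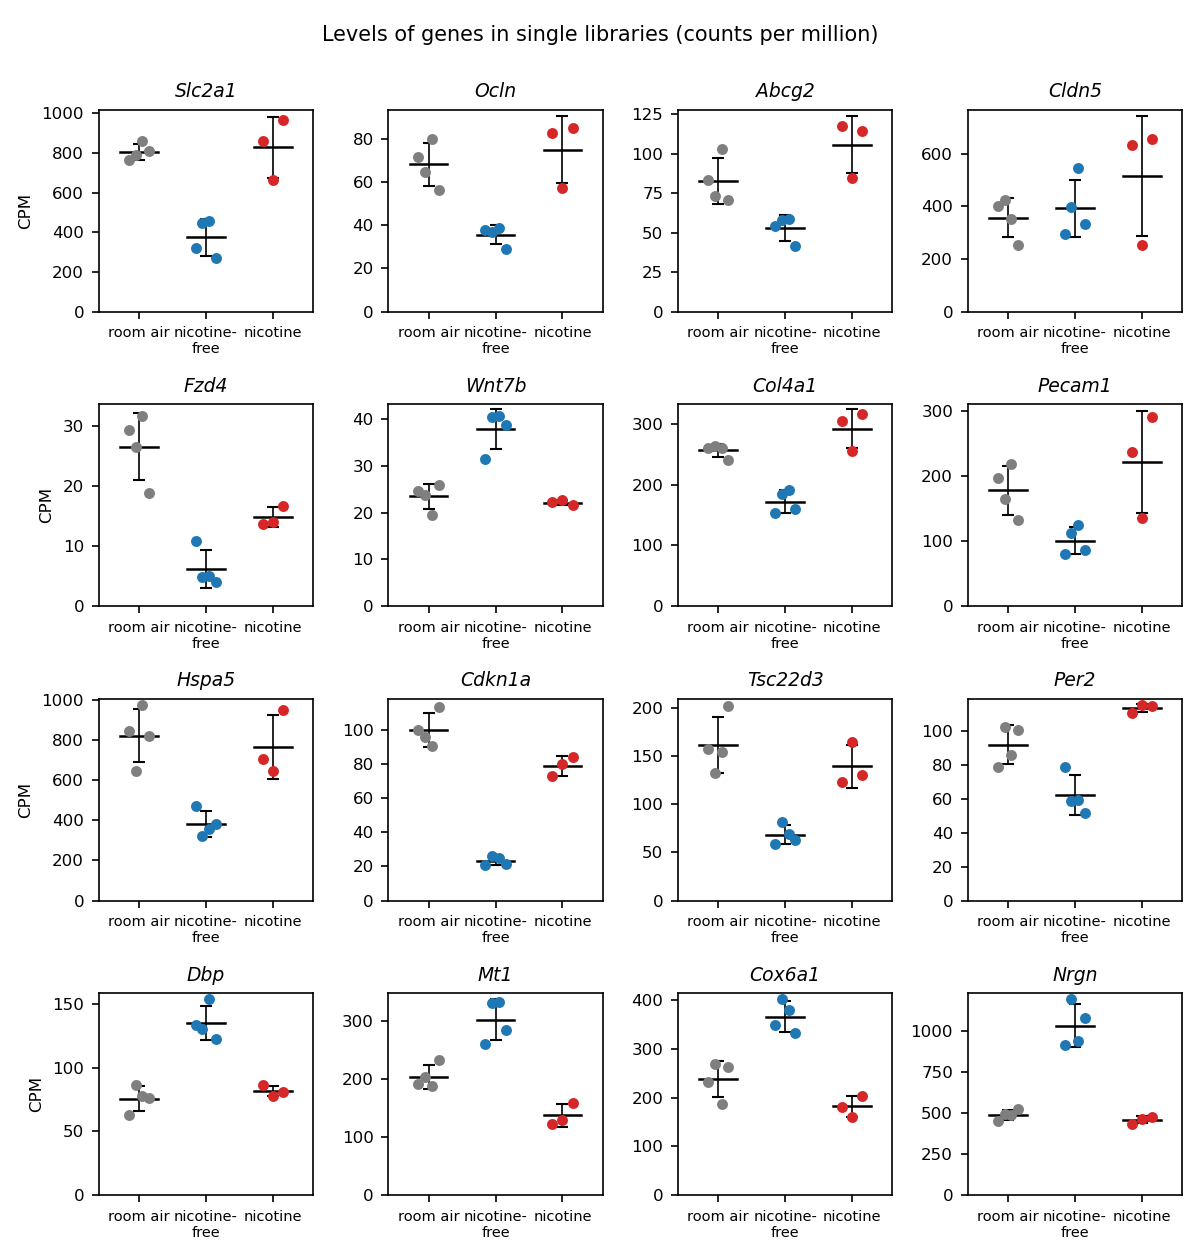
CPM (y axis, from 0) of 16 genes in every library; points are libraries, the long line is the group mean and the bar 1 SD. Slc2a1, Ocln, Hspa5 and Cdkn1a stand lower in all 4 nicotine-free libraries than in all 3 nicotine libraries, Cldn5 overlaps, and Wnt7b, Dbp, Mt1, Cox6a1 and Nrgn stand higher without nicotine.

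Genes of the Wnt and Norrin pathway were split, with 9 of 26 higher and 3 lower. Both ligands that passed were lower with nicotine. Wnt7b measured 22.2, 22.6 and 21.6 CPM with nicotine, 31.5, 40.3, 40.5 and 38.7 CPM without and 19.4 to 25.8 CPM in room air. The nicotine libraries thus sat at the room-air level and the nicotine-free libraries above it, a difference of -0.77 ± 0.12 (adjusted p = 0.000613). Ndp, which encodes Norrin, measured 4.55 to 5.38 CPM with nicotine and 8.38 to 9.34 CPM without, a fall of 0.86 on the log2 scale (SE 0.13).

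The Norrin receptor Fzd4 was higher with nicotine. It measured 13.6, 14.1 and 16.7 CPM with nicotine, 10.8, 4.76, 4.99 and 4.07 CPM without and 18.8 to 31.7 CPM in room air. No nicotine library fell among the nicotine-free ones, and none reached room air. The difference was 1.28 ± 0.29 (adjusted p = 0.0074), and 1.17 with the endothelial covariate (adjusted p = 0.092). Reck, a co-receptor for Wnt7 ligands, rose by 0.41, the nuclear factor Tcf7 by 0.72 and the feedback target Axin2 by 0.32, and the repressor Tcf7l1 fell by 0.54. Reck, Tcf7 and Axin2 did not pass without nicotine replicate 1 (0.39, 0.58 and 0.27, adjusted p = 0.060, 0.070 and 0.104), nor Axin2 without nicotine-free replicate 2 or 4. Of the 7 fits without 1 library, Tcf7l1 passed in the one without nicotine replicate 3 (adjusted p = 0.0515 to 0.142 in the other 6). The number of rises depended on single libraries: 1 of 26 without nicotine replicate 1, 5 without nicotine replicate 3 or nicotine-free replicate 1, 4 without nicotine-free replicate 2, 3 without nicotine-free replicate 4, and 0 with the endothelial covariate, where 5 were lower.

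Basement membrane and matrix genes rose in 10 of 26 cases and fell in 2. Col4a1, a chain of the collagen of that membrane, measured 305, 256 and 316 CPM with nicotine, 153, 185, 191 and 160 CPM without and 240 to 264 CPM in room air. The vapour groups did not overlap, and the rise was 0.76 ± 0.10 (adjusted p = 0.000353), or 0.49 with the endothelial covariate (adjusted p = 0.006). Its partner Col4a2 rose by 0.61, the laminin chain Lamc1 by 0.82 and the laminin receptor subunit Itga6 by 1.00. The matrix count with the endothelial covariate was 6 higher and 1 lower, with Lamc1 at 0.44 and Itga6 at 0.45. The protease inhibitors Timp4 and Timp2 fell by 0.64 and 0.33 on the log2 scale, Timp2 with no call without nicotine replicate 1 or 2 or nicotine-free replicate 1 or 4 (adjusted p = 0.0595 to 0.15), or with the endothelial covariate (0.223). Col4a1 overlaps a gene on the opposite strand.

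Growth factor and Notch signalling genes rose in 6 of 24 cases and none fell, a called share of 25% beside 24.8% of all genes tested. Among those that rose were Tek, the angiopoietin receptor, by 0.79, Notch4 by 0.98, Notch1 by 0.59, the ligand Jag2 by 0.54 and Vegfa by 0.31. Tek, Notch1 and Jag2 did not pass without nicotine replicate 1 or 3 (adjusted p = 0.0506 to 0.0689), nor Vegfa without nicotine replicate 1 or nicotine-free replicate 2, 3 or 4 (adjusted p = 0.0534 to 0.132). That count was 1 without nicotine replicate 1, 2 without nicotine replicate 3, 13 without nicotine replicate 2, and 0, with 4 lower, under the endothelial covariate.

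Among genes of endothelial activation, Plat, the tissue plasminogen activator that starts fibrinolysis, measured 224, 163 and 248 CPM with nicotine, 73.4, 91.4, 95.6 and 81.1 CPM without and 162 to 185 CPM in room air. The groups were far apart, with a rise of 1.31 ± 0.13 (adjusted p = 0.000187), 0.90 with the endothelial covariate (adjusted p = 0.00048) and 1.16 with the neuron covariate (adjusted p = 0.044). The anticoagulant receptor Thbd rose by 1.12 ± 0.23, and was at 0.30 with the endothelial covariate (adjusted p = 0.155). The adhesion molecules that capture leukocytes did not pass: Icam1 ranged from 7.91 to 34.0 CPM with nicotine and from 9.88 to 16.9 CPM without (0.44 ± 0.48, adjusted p = 0.554), and Vcam1 differed by 0.42 ± 0.32 (adjusted p = 0.372). Nicotine replicate 3 held the highest value of both.

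Of 25 NF-kB and cytokine genes 4 rose and none fell, among them the subunit Nfkb1 by 0.52 and the chemokine Cxcl12 by 0.80. Of 27 interferon and MHC class I genes 6 rose and none fell, among them Irf9 by 0.83 and Usp18 by 0.90. Cxcl12 did not pass without nicotine replicate 1 or 3 (0.57 and 0.75). Neither Cxcl12 nor Usp18 passed with the endothelial covariate, at 0.06 and 0.21 (adjusted p = 0.816 and 0.509), and Nfkb1 was at 0.34. The interferon count was 2 without nicotine replicate 1, 3 without nicotine replicate 3 or without nicotine-free replicate 2 or 4, and 1 higher with 7 lower under the endothelial covariate. The NF-kB count was 2 without nicotine replicate 1 or 3 or nicotine-free replicate 2, and 2 with the endothelial covariate. Beside these counts, 12.4% of all genes tested rose.

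Folding genes moved one way: 22 of 32 genes of the heat shock and unfolded protein responses rose and none fell, with a median of 0.48. When unfolded protein accumulates in the endoplasmic reticulum, the sensors Ern1, Eif2ak3 and Atf6 raise chaperones, in part through the stress element of their promoters, which ATF6 and XBP1 recognise together with NF-Y. Promoters from RefSeq (GRCm38.p6, 250 bases before to 50 after the start) were found for 24 of the 32 members. The stress element, searched on both strands as CCAAT, any 9 bases, then CCACG, was present in 7 of these 24 (29.2%) and in 20 of 12585 genes tested that had a promoter (0.159%). Of the 7, 6 rose (Hspa5, Pdia6, Creld2, Hsp90b1, Calr, Dnajc3) and Canx did not pass, at 0.17 ± 0.11 (adjusted p = 0.283). The list was chosen as genes of this response, so its higher share of the element can follow from that choice alone. Beside the 6 of 7, 22 of all 32 members rose. A match describes the letters and shows no binding. The windows below are shown because they let the shared element be compared in members that rose; capitals mark the match, which in Creld2 and in the downstream copy of Hsp90b1 reads on the opposite strand.
Hspa5, chr2:34772005-34772063, + strand, match starting at -65 from the transcription start: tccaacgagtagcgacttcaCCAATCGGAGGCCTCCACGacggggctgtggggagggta
Pdia6, chr12:17266471-17266529, + strand, match starting at -98: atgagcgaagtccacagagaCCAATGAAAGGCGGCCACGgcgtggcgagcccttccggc
Creld2, chr15:88819500-88819558, + strand, match starting at -126: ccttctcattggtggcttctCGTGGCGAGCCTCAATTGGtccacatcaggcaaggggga
Hsp90b1, chr10:86705513-86705676, - strand, matches starting at -212 and -107: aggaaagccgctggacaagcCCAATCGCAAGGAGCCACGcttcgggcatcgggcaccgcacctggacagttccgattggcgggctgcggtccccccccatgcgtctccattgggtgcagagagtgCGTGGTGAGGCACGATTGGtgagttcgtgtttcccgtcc

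Hspa5 encodes BiP, the master chaperone of that compartment. It measured 704, 648 and 949 CPM with nicotine, 472, 320, 356 and 380 CPM without and 648 to 974 CPM in room air. The nicotine libraries spread over much the same range as room air, and all 4 nicotine-free libraries lay below both. The rise was 1.00 ± 0.16 (adjusted p = 0.000975), 0.87 with the endothelial covariate (adjusted p = 0.018). The disulfide isomerase Pdia6 rose by 0.62 ± 0.12 (0.50 with that covariate, adjusted p = 0.0503), the transcription factor Xbp1 by 0.67 ± 0.11 and Herpud1, a degradation factor, by 0.59 ± 0.11. Creld2 rose by 0.69 ± 0.15 and Hsp90b1 (GRP94) by 0.59 ± 0.15, both named for their promoters after their values were seen.

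Cytosolic heat shock genes varied widely among the nicotine libraries. Hspb1 (HSP27) measured 65.1, 28.9 and 138 CPM with nicotine and 14.8 to 27.6 CPM without, a difference of 1.99 ± 0.48 (adjusted p = 0.017), with 0.44 under the endothelial covariate (adjusted p = 0.25). The inducible chaperone Hspa1b measured 12.8, 4.93 and 26.8 CPM with nicotine and 3.81 to 4.43 CPM without; replicate 2 was just above the nicotine-free range. Hspa1b was at 0.48 with that covariate (adjusted p = 0.539). Without nicotine replicate 3 the difference was 1.27 for Hspb1 and 1.06 for Hspa1b. Across the list, the count that rose was 13 without nicotine replicate 3 or nicotine-free replicate 2, 14 without nicotine-free replicate 4 and 5 with the endothelial covariate, with no member lower in any of these. The separate list of ATF4 and amino acid stress genes gave 1 rise and 2 falls among 22, with a median of -0.08. Its called share was 13.6%, below the 24.8% of all genes tested.

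Stress hormones act through the glucocorticoid receptor, and 9 of 24 glucocorticoid-induced genes rose while 2 fell, with a median of 0.49. Cdkn1a, the cell cycle inhibitor p21 and also a p53 target, had the lowest p of all genes tested. It measured 72.6, 79.8 and 84.2 CPM with nicotine, 20.9, 26.1, 24.7 and 21.5 CPM without and 90.2 to 114 CPM in room air. Each group was tight, and the nicotine-free libraries stood far below both others. The rise was 1.76 ± 0.11 (adjusted p = 1.34e-06), and 1.75 and 1.84 with the endothelial and neuron covariates (adjusted p = 2.7e-05 and 0.0014). Cdkn1a overlaps a gene on the opposite strand.

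Tsc22d3 (GILZ), an anti-inflammatory target of the receptor, measured 122, 164 and 131 CPM with nicotine, 58.9, 81.3, 69.3 and 63.3 CPM without and 132 to 202 CPM in room air. It rose by 1.03 ± 0.15 (adjusted p = 0.0005), and by 1.198 and 1.216 with the endothelial and neuron covariates (adjusted p = 0.000879 and 0.0473). The kinase Map3k6 rose by 1.98 ± 0.28, and Txnip, which binds thioredoxin and limits glucose uptake, by 0.96 ± 0.12. The glucocorticoid response element, searched as GNACA, any 3 bases, TGTNC, on both strands, was in 4 of 21 promoters of the list (19.0%), and in 0.437% of all. The 4 were Map3k6, Mt1, Sgk1 and Txnip, of which 3 rose and Mt1 fell. Because the list was chosen as genes that glucocorticoids induce, its higher share of the element can follow from that choice alone.

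Metallothioneins, which bind zinc and are induced by both glucocorticoids and metals, went the other way. Mt1 measured 122, 130 and 160 CPM with nicotine, 261, 331, 333 and 285 CPM without and 188 to 233 CPM in room air. The nicotine libraries were below every room-air library and the nicotine-free libraries above. Mt1 fell by 1.14 on the log2 scale (SE 0.12, adjusted p = 0.000212) and Mt2 by 0.81 (SE 0.13). Mt3, a neural metallothionein that is not on the list, fell by 1.29 (SE 0.15).

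Of 21 p53 targets 5 rose and 1 fell (28.6% called, near the 24.8% of all genes tested), and 3 rose without nicotine replicate 2. Besides Cdkn1a, the proapoptotic gene Pmaip1 rose by 1.45 ± 0.23, Trp53inp1 by 0.81 and the p53 inhibitor Mdm4 by 0.86 ± 0.10, while Phlda3 fell by 0.51. Trp53inp1 did not pass without nicotine replicate 2 (0.51, adjusted p = 0.068), nor Phlda3 without nicotine replicate 1 or 2 or nicotine-free replicate 2, 3 or 4 (adjusted p = 0.0555 to 0.174).

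The clock list was split, with 6 of 23 genes higher and 4 lower. Arntl (BMAL1), part of the activator pair of the clock, measured 53.6, 56.3 and 52.0 CPM with nicotine, 36.8, 35.5, 32.4 and 35.8 CPM without and 42.0 to 45.0 CPM in room air. The 3 groups did not overlap and room air stood in the middle. Arntl rose by 0.62 ± 0.08 (adjusted p = 0.000287) and its partner Clock by 0.51. Clock genes vary over the day, and the part of the hour of collection, which is not given in the sources used here, was not tested.

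Dbp, an output factor driven by that pair, moved against it: 86.2, 78.0 and 80.7 CPM with nicotine, 134, 131, 154 and 123 CPM without and 62.5 to 86.2 CPM in room air. The nicotine-free libraries were above all others, and the difference was -0.73 ± 0.11 (adjusted p = 0.000689). Per2, a repressor of the pair, rose by 0.87 ± 0.13, with 111 to 115 CPM with nicotine and 51.7 to 78.8 CPM without. The repressor Bhlhe41 fell by 0.60 on the log2 scale. Without nicotine replicate 1, 2 clock genes were lower. Arntl, Dbp and Bhlhe41 overlap genes on the opposite strand.

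Immediate early genes, which respond within minutes to stimulation, rose in 8 of 29 cases and fell in 2. Maff measured 12.7, 7.19 and 18.9 CPM with nicotine and 2.59 to 4.35 CPM without, a rise of 1.95 ± 0.32 (adjusted p = 0.0014). The flow-responsive endothelial factor Klf2 rose by 1.00 ± 0.17, Homer1 by 0.73 and Fosl2 by 0.67, and Junb and Jund fell by 0.44 and 0.41. Jund did not pass without nicotine replicate 1 or 2 (-0.39 and -0.30), nor Junb without these or nicotine-free replicate 1, 2 or 4 (-0.49 to -0.32). The list gave 5 lower without nicotine-free replicate 3 and 4 higher with the endothelial covariate. With that covariate Maff was at 0.94 and Klf2 at 0.53, both past the threshold, and Fosl2 and Junb did not pass (0.48 and -0.42, adjusted p = 0.0824 and 0.209). Fos did not pass, at -0.26 ± 0.30 (adjusted p = 0.558).

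Of 16 nicotinic receptor genes and their partners none rose, 1 fell and the median was -0.01. Chrna4 and Chrnb2 form the main high-affinity receptor of the brain: Chrna4 measured 25.8, 29.0 and 25.9 CPM with nicotine and 33.4 to 34.2 CPM without (-0.32 ± 0.12, adjusted p = 0.0653). Chrna4 passed in 3 of 17 alternatives, namely the fit of the 7 libraries, the length and GC offsets and DESeq2, where the list gave 2 lower; over all 17 its adjusted p ran from 0.0165 to 0.947. Chrnb2 measured 50.1 ± 2.21 against 47.5 ± 3.15 CPM (0.08 ± 0.09). Chrna7, which forms receptors on its own, measured 4.93 ± 0.73 against 4.19 ± 0.63 CPM (0.24 ± 0.16, adjusted p = 0.298). Chrnb1, a muscle-type subunit, measured 6.71 ± 1.99 against 5.89 ± 0.84 CPM.

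The remaining subunits were near the limit of detection, with group means under 2 CPM: Chrna1, Chrna2, Chrna3, Chrna5, Chrna6, Chrna10, Chrnb3, Chrnb4 and Chrne, whose differences ran from -0.50 ± 0.49 for Chrna10 to 0.73 ± 0.36 for Chrne, none past the threshold. The chaperones Ric3 and Tmem35a, which help receptors assemble, differed by 0.01 ± 0.10 and -0.31 ± 0.13. Lynx1, a membrane protein that restrains these receptors, was the member that fell: 162, 185 and 237 CPM with nicotine against 273, 311, 293 and 300 CPM without, with 228 to 292 CPM in room air (-0.60 ± 0.13, adjusted p = 0.0041).

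Genes of dopamine-receptive neurons, a circuit that nicotine engages, fell in 5 of 20 cases and rose in 1 (30% called, near the 24.8% of all genes tested). Ppp1r1b (DARPP-32), the signalling hub of these neurons, measured 113, 148 and 148 CPM with nicotine, 207 to 286 CPM without and 218 to 314 CPM in room air, a fall of 0.81 on the log2 scale (SE 0.15, adjusted p = 0.0017). Here the nicotine libraries were the group apart from both others. The G protein subunit Gng7 fell by 0.82 and the phosphodiesterase Pde10a rose by 0.57, a call that did not hold without nicotine replicate 1 or 2 or nicotine-free replicate 1, 2 or 3 (adjusted p = 0.0578 to 0.123). Ppp1r1b overlaps a gene on the opposite strand.

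Enzymes that metabolise nicotine and other foreign compounds changed in 2 of 18 cases. Fmo2, a flavin monooxygenase that oxidises amines, measured 13.9, 12.6 and 14.5 CPM with nicotine, 6.54, 7.97, 7.59 and 4.80 CPM without and 9.24 to 18.1 CPM in room air, a rise of 1.02 ± 0.22 (adjusted p = 0.0048). With the endothelial covariate Fmo2 was at 0.62 (adjusted p = 0.0901), and 0 genes of the list were higher. Ephx2 fell by 0.49 on the log2 scale, and by 0.37 without nicotine replicate 1 (adjusted p = 0.076). Cyp2e1 stayed at 0.565 to 1.88 CPM in all 7 libraries (0.06 ± 0.53), and Cyp1b1, the target of the aryl hydrocarbon receptor that brain endothelium expresses, differed by 0.80 ± 0.28 (adjusted p = 0.0532). Cyp1b1 passed in 6 of 17 alternatives, over all of which its adjusted p ran from 0.0129 to 0.69.

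Antioxidant genes under NRF2 and related control fell in 14 of 31 cases and rose in 1, with a median of -0.41. Gstm5, a glutathione transferase, measured 72.9, 73.6 and 88.4 CPM with nicotine, 134, 158, 146 and 141 CPM without and 96.2 to 107 CPM in room air. The 3 groups did not overlap and the nicotine libraries were the lowest (-0.89 ± 0.10, adjusted p = 0.000212). Prdx6 fell by 0.69 and Prdx5 by 0.81, both of which reduce peroxides, and the iron store Fth1 by 1.00 on the log2 scale (SE 0.18). Nfe2l2, which encodes NRF2, was the member that rose, by 0.46, with no call without nicotine replicate 1 or 3 or nicotine-free replicate 2, 3 or 4 (adjusted p = 0.0696 to 0.132). Nfe2l2 was at 0.18 with the endothelial covariate (adjusted p = 0.521). The count that fell was 9 without nicotine replicate 1.

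Genes of energy metabolism fell together. Of 79 nuclear genes of oxidative phosphorylation 72 fell and none rose, with a median of -0.59. Cox6a1, a subunit of cytochrome oxidase, measured 181, 161 and 204 CPM with nicotine, 349, 403, 381 and 332 CPM without and 187 to 269 CPM in room air. The vapour groups were far apart, with a difference of -1.01 ± 0.13 (adjusted p = 0.000291) and -1.12 with the endothelial covariate (adjusted p = 0.000964); with the neuron covariate it was -1.04 (adjusted p = 0.0517). Ndufb9 of complex I fell by 0.95 on the log2 scale (SE 0.11) and Uqcr11 of complex III by 0.99 (SE 0.13).

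Of 80 cytosolic ribosomal protein genes 70 fell and none rose, with a median of -0.67, and 46 fell without nicotine replicate 1. Rpsa measured 161, 162 and 224 CPM with nicotine, 331 to 382 CPM without and 213 to 244 CPM in room air (-0.95 ± 0.12). Mitochondrial ribosomal proteins fell in 33 of 77 cases with 1 rise, and proteasome subunits in 12 of 38 cases with 1 rise. Of hypoxia and glycolysis genes 13 of 31 fell and 3 rose, with 8 falls without nicotine replicate 1. The aldolase Aldoc, also an astrocyte marker, fell by 1.05, the lactate dehydrogenase Ldhb by 0.78 and Gapdh by 0.70, while Slc2a1 and the glycolytic activator Pfkfb3 rose, the latter by 0.52. Cholesterol synthesis genes fell in 10 of 28 cases and none rose, 6 without nicotine replicate 1, among them Hmgcs1 by 0.57 and Fdps by 0.50.

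**Figure D3:**
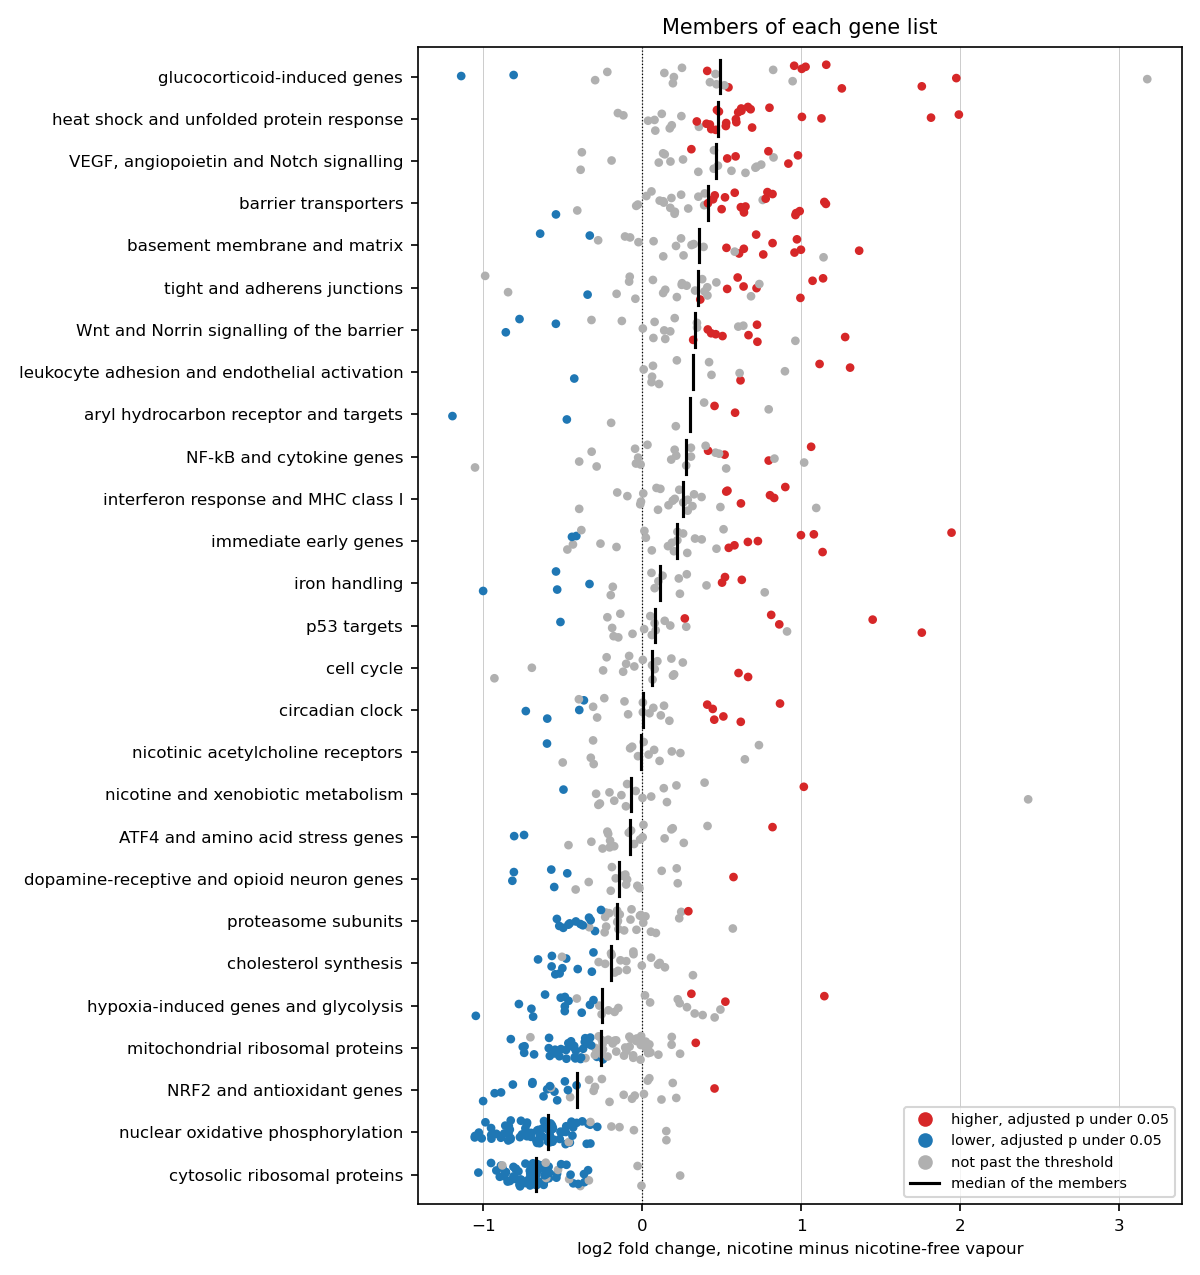
Log2 fold change of nicotine minus nicotine-free vapour (x axis) for each member of 27 gene lists, 1 point per gene, red where higher and blue where lower at an adjusted p under 0.05, grey otherwise; the black tick is the median. The folding, glucocorticoid and vessel lists lie to the right of 0, and oxidative phosphorylation (72 of 79 lower) and cytosolic ribosomal proteins (70 of 80 lower) to the left.

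The oxidative phosphorylation and ribosomal lists hold short transcripts, and the difference between the vapours followed transcript length across all genes. In the quintile of genes with the shortest exonic length, 56 to 2126 bp, 4.32% were higher and 20.8% lower with nicotine, and in the longest quintile, 7194 bp and more, 25.3% were higher and 5.20% lower. By GC content the lower calls ran from 5.35% in the lowest quintile to 20.2% in the highest. The median exonic length was 1718 bp for the oxidative phosphorylation list and 1754 bp for the ribosomal list, against 4093 bp over all genes tested.

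With the trends of length and GC content removed from each library, 1649 genes were higher and 2733 lower, so that 37.6% of calls were higher, against 49.9% without the correction. The oxidative phosphorylation count was 72 lower and 0 higher again, with a median of -0.57, and the ribosomal count 68 lower and 0 higher. Barrier transporters gave 12 higher and 1 lower, and the folding list 20 higher and 0 lower. The median of all genes stood at -0.03 in that fit.

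**Figure D4:**
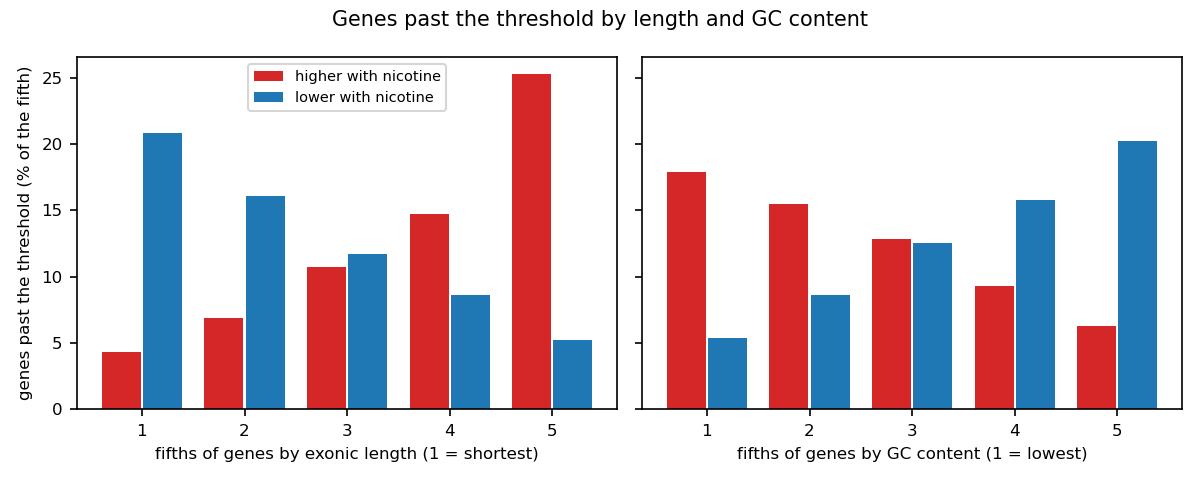
Percentage of genes past the threshold (y axis, from 0) higher (red) and lower (blue) with nicotine in quintiles of genes by exonic length (left) and GC content (right). Higher calls grow from 4.32% among the shortest to 25.3% among the longest genes, and lower calls shrink from 20.8% to 5.20%.

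Among single genes, the largest rises whose groups did not overlap included Zfp366 and endothelial genes. Zfp366, a zinc finger gene, measured 14.3, 8.77 and 17.6 CPM with nicotine and 2.27 to 4.46 CPM without, a rise of 2.13 ± 0.37, and Abhd12b rose by 2.07 ± 0.26. Adgrl4, an adhesion receptor of endothelium, measured 297, 150 and 291 CPM with nicotine and 69.0 to 106 CPM without (1.58 ± 0.25), with 0.71 under the endothelial covariate (adjusted p = 0.002) and 1.26 under the neuron covariate (adjusted p = 0.146). Zfp366 and Nostrin were at 1.17 and 0.95 with the endothelial covariate, both past the threshold. Nostrin, which traffics endothelial nitric oxide synthase, rose by 1.59 ± 0.24.

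Neural genes were among the largest falls. Nrgn, a calmodulin-binding protein of forebrain neurons, measured 436, 461 and 479 CPM with nicotine, 916 to 1194 CPM without and 449 to 524 CPM in room air (-1.17 ± 0.11, adjusted p = 0.000162). Caln1 fell by 1.22 (SE 0.13) and Ttc9b by 1.25 (SE 0.11). With the neuron covariate these 3 still passed, at -1.10, -0.93 and -1.26 (adjusted p = 0.038, 0.044 and 0.022), though Nrgn is itself part of that covariate. For Nrgn, Caln1 and Ttc9b the nicotine libraries lay near room air and the nicotine-free libraries far above. Mbp, the myelin basic protein, fell by 1.01 on the log2 scale (SE 0.20) with 4215 to 8672 CPM with nicotine and 11770 to 12660 CPM without. Caln1, Ttc9b and Mbp overlap genes on the opposite strand.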

How the data were processed

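The authors deposited raw read counts for each Ensembl gene, made with STAR, HTSeq and the mouse build mm10 as the submitters' processing notes state; versions, annotation and the strand setting of the counting are not given in the sources used here. Each file lists 39179 genes and 5 summary rows, which were left out of totals and tests; the no-feature row is given as a share in the text. Symbols, positions, exonic length and GC content came from GENCODE M21 (37693 genes with a symbol).

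Counts of 11 libraries (4 room air, 4 nicotine-free, 3 nicotine) were fitted with edgeR 4.0.16 in R 4.3.3: TMM scaling, filterByExpr, the quasi-likelihood test (glmQLFit, robust; glmQLFTest; two-sided). A gene was called at a Benjamini-Hochberg adjusted p under 0.05, adjusted over all 17235 genes that passed the filter. Levels are CPM on TMM-scaled library sizes, given as mean ± SD, and a log2 fold change is given with its SE. No label says that replicates are separate animals, so p-values measure the spread between these libraries only. List levels are mean log2 CPM with a prior count of 0.5, compared by exact permutation tests (scipy 1.17.1).

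Named genes were the 15 largest rises and falls with no overlap and a mean of at least 5 CPM in the higher group, the 15 lowest p-values, a set of barrier, stress and nicotine genes, and in each list at most the 4 lowest p-values per direction. The comparison, members and lists were chosen with earlier results of these data known. DESeq2 1.42.0, other scalings, filters, offsets, covariates, a replicate block and each library left out in turn were tried as alternatives. The fit was tested on simulated data.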

Additional observations from a re-analysis of the deposited data

Results flagged for a closer look

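In groups of 4 libraries, 1 library stood apart from the other 3 by Dixon's gap-to-range ratio in 7 of 120 groups checked, and chance flags about 1 in 20. Fzd4 had 10.8 CPM in nicotine-free replicate 1 against 4.07 to 4.99 CPM in the other 3, and Chrna4 34.2 CPM in the same library against 33.4 to 33.5 CPM. The lymphocyte markers averaged 0.608 in log2 CPM there, below each of the other 3. In room air, Col4a1 had 240.0 CPM in replicate 4 against 261 to 264 CPM, Fth1 3100 CPM in replicate 2 against 2680 to 2740 CPM, Aldoc 861 CPM in replicate 1 against 719 to 743 CPM, and Icam1 24.4 CPM in replicate 3 against 11.1 to 12.9 CPM.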

How the results depend on the processing

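Over 17 alternatives the counts of 2131 genes higher and 2142 lower ranged from 1238 to 2423 and from 1163 to 2256 when 1 library was left out (lowest without nicotine replicate 1; 1366 higher without nicotine-free replicate 2), and were 58 and 33 with the neuron marker level as a covariate. With DESeq2 they were 2332 and 2338, and with counts thinned to 1 depth 2058 and 2094. In a replicate block they were 1701 and 1717; deviations of same-numbered libraries correlated at -0.188, -0.03 and 0.147, so the numbers were not taken to pair libraries. Adding length and GC offsets to the block gave 1484 and 2282 (39.4% of calls higher). Of 213 named genes, 191 passed, 133 of them in every alternative other than the covariate fits and 26 in every one, and 190 kept their sign throughout. The called gene that changed sign was Ephb4, at -0.12 with the endothelial covariate. The other sign changes were of genes that did not pass: with that covariate Cldn5 -0.72, Cyp2e1 -0.64, Fos 0.136, Icam1 -0.95, Vcam1 -0.188, Chrna5 0.27, Chrna6 -0.34, Chrnb1 -0.28, Chrnb3 0.0173 and Chrnb4 0.65; with the neuron covariate Chrna4 0.0285, Fos 0.299, Icam1 -0.24, Vcam1 -0.16, Chrna1 0.68, Chrna5 0.0333, Chrna10 0.19, Chrnb3 0.49 and Tmem35a 0.0828. Length and GC offsets gave Chrnb2 -0.0109 and Ric3 -0.17, the block Chrna5 0.0356 and Chrna6 -0.16, both together Fos 0.0369, Chrna6 -0.16 and Ric3 -0.14, and thinning Cyp2e1 -0.0252 and Chrna5 0.0600. Over the fits without 1 library, Cyp2e1 ran from -0.344 to 0.417, Icam1 from -0.340 to 0.802, Vcam1 from -0.0471 to 0.617, Chrna2 from -0.0825 to 0.360, Chrna5 from -0.113 to 0.124, Chrna6 from -0.581 to 0.340, Chrnb1 from -0.0837 to 0.346, Chrnb3 from -0.229 to 0.0936, Chrnb4 from -0.449 to 1.08 and Ric3 from -0.107 to 0.0767. The cause of these changes was not tested. For genes near 1 CPM, counting error limits what could be seen.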
